A study of Mus musculus with 6 samples.

Results

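The binding of full-length KLF3 was compared with that of ΔDL, a form in which the D and L of the PVDLT motif that contacts the corepressor CtBP were replaced by A and S. Both proteins carried a V5 tag and were introduced with an MSCV retrovirus into Klf3-/- mouse embryonic fibroblasts (MEFs) of the C57BL/6 strain, which therefore lack the endogenous factor. Each protein was expressed in 1 stable clonal line, so that a difference between the proteins cannot be told apart from a difference between the clones. Chromatin from each line was immunoprecipitated with an anti-V5 antibody in duplicate, and the 2 immunoprecipitation records of the 6 records in the series were used, which give 4 replicate peak lists. Peak lists do not allow the cells to be checked against fibroblast markers, and age and sex of the source animals are not given in the sources used here.

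KLF3 is a zinc finger factor of the Krüppel-like family. Its C-terminal fingers recognise CACCC boxes and related GC-rich elements, and its N-terminal domain recruits CtBP, which assembles histone deacetylases and other enzymes that silence genes. KLF3 acts mainly as a repressor and is known for roles in fat cell differentiation, blood cell development and epidermis. The comparison asks where on the genome the factor is found once the contact with CtBP has been removed, promoter by promoter and at sites away from promoters.

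A site is a 400 bp interval of the deposited table of all peaks that was called in both KLF3 lists or in both ΔDL lists, with a shared base sufficing as overlap. There were 21731 such sites, of which 4446 were promoter sites (from 1 kb upstream to 0.1 kb downstream of a RefSeq start), 7104 lay in introns, 9416 between genes and 765 in exons or near gene ends. Sites called in all 4 lists are named kept. Sites called in both KLF3 lists and in neither ΔDL list, with a height at least 2-fold lower in ΔDL, are named lost, and sites with the opposite pattern gained. Height is the number of tags in the 400 bp of both replicates combined per 100 M tags, and the peak score is the same kind of count within the narrower peak of 1 replicate. The gene named for a site is the nearest that the authors' annotation gives, at any distance, and a link to that gene was not tested.

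The lists differed in the number of tags behind their scores. The study reports more mapped reads for each library than the tag numbers given here, and the reason was not tested. The worth of 1 tag in the peak scores corresponded to 5.46 M and 18.1 M tags for KLF3 replicates 1 and 2, and to 1.77 M and 10.2 M for ΔDL replicates 1 and 2. The median peak held 9 and 21 tags in the KLF3 lists and 6 and 11 tags in the ΔDL lists. At sites called in all 4 lists the scores of the replicates correlated across sites with r = 0.832 for KLF3 and r = 0.396 for ΔDL, and sites are not independent replicates. The pooled ΔDL height therefore consists mostly of replicate 2, and the ΔDL lists are read separately wherever a result rests on calls.

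Central 200 bp of 8 sites are shown to give the sequence behind each kind of result: lost promoters (Nrtn, Hexa), promoters with high scores in all 4 lists (Rangap1, Tcf3), a lost and a kept intergenic site (near H3f3a and Alox5ap), a gained site (near Foxa2) and the 1 site that passed the test as higher in ΔDL (near Cxcl12). They were read from the plus strand of the mm9 genome, and capitals mark KLF cores on either strand, namely the hexamer ACACCC, its variant CCACCC, the more G+C-rich form ACGCCC and its variant CCGCCC, with overlapping matches counted separately. At least 1 core was found in 50.9% of the 21731 central windows, in 93.5% of the promoter windows and in 40.0% of the others.
Nrtn promoter, lost, chr17:56896976-56897175: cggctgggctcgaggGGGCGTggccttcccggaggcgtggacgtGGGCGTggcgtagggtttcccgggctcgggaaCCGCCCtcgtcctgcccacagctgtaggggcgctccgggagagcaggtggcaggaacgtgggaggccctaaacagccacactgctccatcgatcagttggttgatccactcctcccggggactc
Hexa promoter, lost, chr9:59387231-59387430: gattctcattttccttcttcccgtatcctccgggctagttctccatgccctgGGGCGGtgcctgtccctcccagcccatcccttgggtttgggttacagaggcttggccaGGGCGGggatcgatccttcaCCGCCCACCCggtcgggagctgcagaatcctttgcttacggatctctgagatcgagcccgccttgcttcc
Rangap1 promoter, kept, chr15:81560522-81560721: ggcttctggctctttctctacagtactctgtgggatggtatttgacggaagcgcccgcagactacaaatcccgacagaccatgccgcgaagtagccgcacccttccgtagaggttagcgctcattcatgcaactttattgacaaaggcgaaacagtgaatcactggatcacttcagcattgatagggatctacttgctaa
Tcf3 promoter, kept, chr10:79896568-79896767: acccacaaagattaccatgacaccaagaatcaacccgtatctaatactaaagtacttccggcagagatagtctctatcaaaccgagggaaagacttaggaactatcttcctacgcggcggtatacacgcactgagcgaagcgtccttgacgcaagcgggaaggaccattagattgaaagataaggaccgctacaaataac
intergenic near H3f3a, lost, chr1:182708337-182708536: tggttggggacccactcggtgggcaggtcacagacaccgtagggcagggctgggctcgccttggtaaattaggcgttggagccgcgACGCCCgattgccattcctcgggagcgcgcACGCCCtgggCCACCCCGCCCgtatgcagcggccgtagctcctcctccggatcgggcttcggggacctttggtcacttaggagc
intergenic near Alox5ap, kept, chr5:150040629-150040828: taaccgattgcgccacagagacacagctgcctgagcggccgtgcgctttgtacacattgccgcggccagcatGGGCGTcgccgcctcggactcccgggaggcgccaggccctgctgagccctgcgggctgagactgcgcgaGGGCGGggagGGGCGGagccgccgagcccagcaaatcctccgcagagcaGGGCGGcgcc
intergenic near Foxa2, gained, chr2:147753449-147753648: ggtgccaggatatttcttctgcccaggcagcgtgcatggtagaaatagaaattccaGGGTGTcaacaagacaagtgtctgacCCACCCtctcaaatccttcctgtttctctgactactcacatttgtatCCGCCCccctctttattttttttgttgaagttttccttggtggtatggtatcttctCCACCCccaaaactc
intergenic near Cxcl12, kept, chr6:117239685-117239884: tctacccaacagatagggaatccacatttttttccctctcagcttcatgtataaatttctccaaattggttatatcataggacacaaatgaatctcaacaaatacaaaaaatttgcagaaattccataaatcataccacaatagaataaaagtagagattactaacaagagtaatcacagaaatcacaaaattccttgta
The 3 lost sites shown held 3 or 4 core matches each, and the Rangap1 and Tcf3 promoters and the Cxcl12 site held none. The Alox5ap and Foxa2 sites held 4 matches each although they were kept and gained, so the count of cores did not sort these sites by class.

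Over all sites, promoters and other sites differed in opposite directions. At promoter sites the median height was 320 tags per 100 M in KLF3 and 197 in ΔDL, and the median log2 difference (ΔDL minus KLF3) was -0.68. At the other sites the median heights were 130 and 182, and the median difference was 0.76. A height at least 2-fold lower in ΔDL was found at 1494 of 4446 promoter sites (33.6%), against 15.1% of all sites, and a height at least 2-fold higher at 38 promoter sites (0.855%), against 28.4% of all sites. Of the promoter sites 790 were lost (17.8%, against 9.55% of all sites), 935 were kept (21.03%, against 22.5%), 14 were gained (0.315%, against 11.4%) and 2707 lay in between. The direction at the other sites depended on the scale. The difference was 0.74 at the median site called in all 4 lists. Centring on it gave medians of -1.42 at promoters and 0.02 elsewhere. The direction there also depended on which sites entered. Among sites called in both KLF3 lists the medians were -0.71 at promoters and -0.11 elsewhere. Sites called in both ΔDL lists and in 0 or 1 KLF3 list had medians of 1.19 and 1.04 outside promoters. A set chosen by the calls of 1 protein favours that protein.

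**Figure D1:**
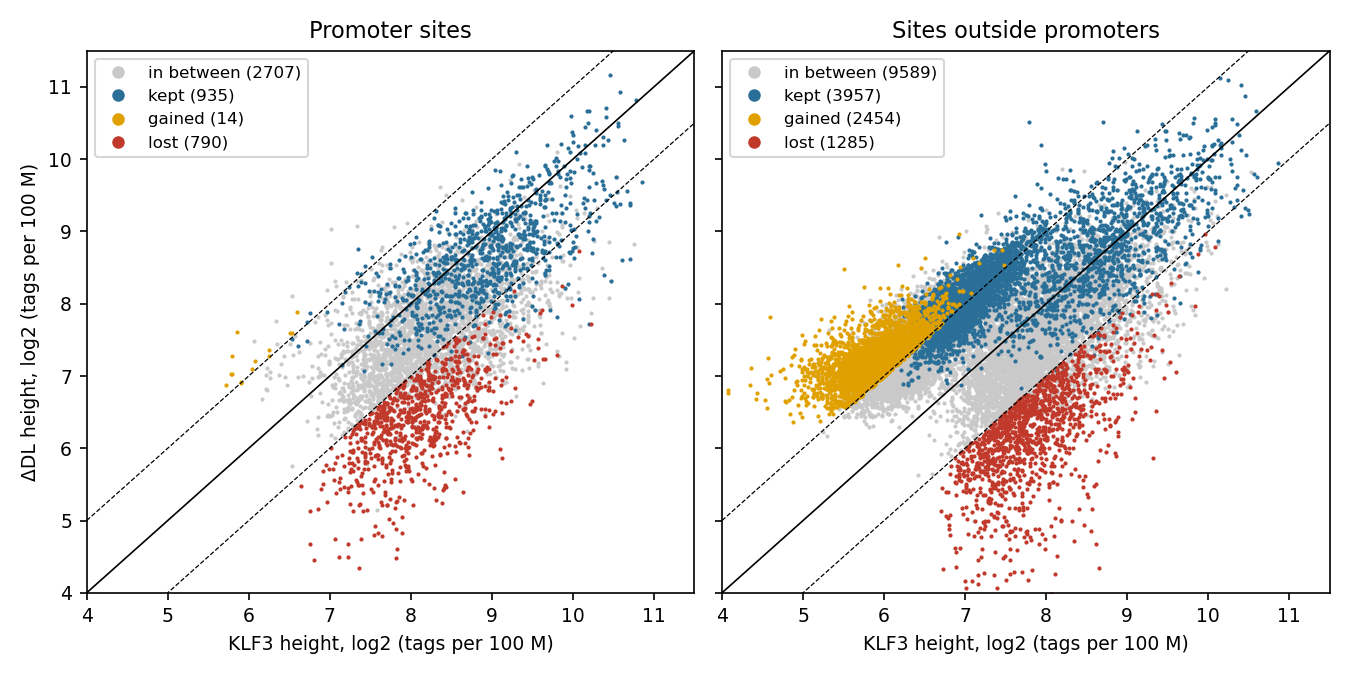
Height of each site in ΔDL against KLF3 on log2 axes (tags per 100 M, both replicates combined) for promoter sites (left) and all other sites (right), coloured by class with the number of sites, with the line of equal height and dashed lines at 2-fold; 32 sites outside the axes are not drawn. Promoter sites form 1 cloud below the line, and the other sites form 2 clouds, of which the one at low KLF3 height lies near the upper 2-fold line.

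Sites outside promoters were not of 1 kind. Among those called in both KLF3 lists, the 3960 with a log2 KLF3 height below 7.5 had a median difference of 0.80, and 59.6% of them were kept. The median was -0.34 at 2282 sites between 7.5 and 8, -0.47 at 1771 sites between 8 and 8.5, -0.48 at 1126 sites between 8.5 and 9 and -0.49 at 783 sites of 9 or more. Promoter sites in the same ranges had medians of -0.51, -0.64, -0.72, -0.79 and -0.81. Since the ranges are set by the KLF3 height that is also subtracted, a low KLF3 height raises the difference by construction, and the values describe the clouds of the height plot only.

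The difference was then read by G+C content and position together. Among sites called in both KLF3 lists with 40 to 50% G+C, the median difference was -0.05 at 215 promoter sites and -0.06 at 4264 other sites. From 50 to 60% it was -0.34 at 1165 promoter sites and -0.51 at 2292 others, from 60 to 70% -0.78 at 2070 and -0.97 at 777, and at 70% or more -1.31 at 823 and -1.50 at 287. Under 35% the median was 1.04 at 899 other sites and from 35 to 40% it was 0.80 at 1403, with 6 and 15 promoter sites there. Within each of the 3 upper ranges, promoter sites were less reduced than other sites, whereas over all G+C contents the medians were -0.71 at promoters and -0.11 elsewhere. A height at least 2-fold lower was found at 66.8% of promoter sites and 75.6% of other sites in the highest range, and at 10.7% and 13.5% in the lowest.

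**Figure D2:**
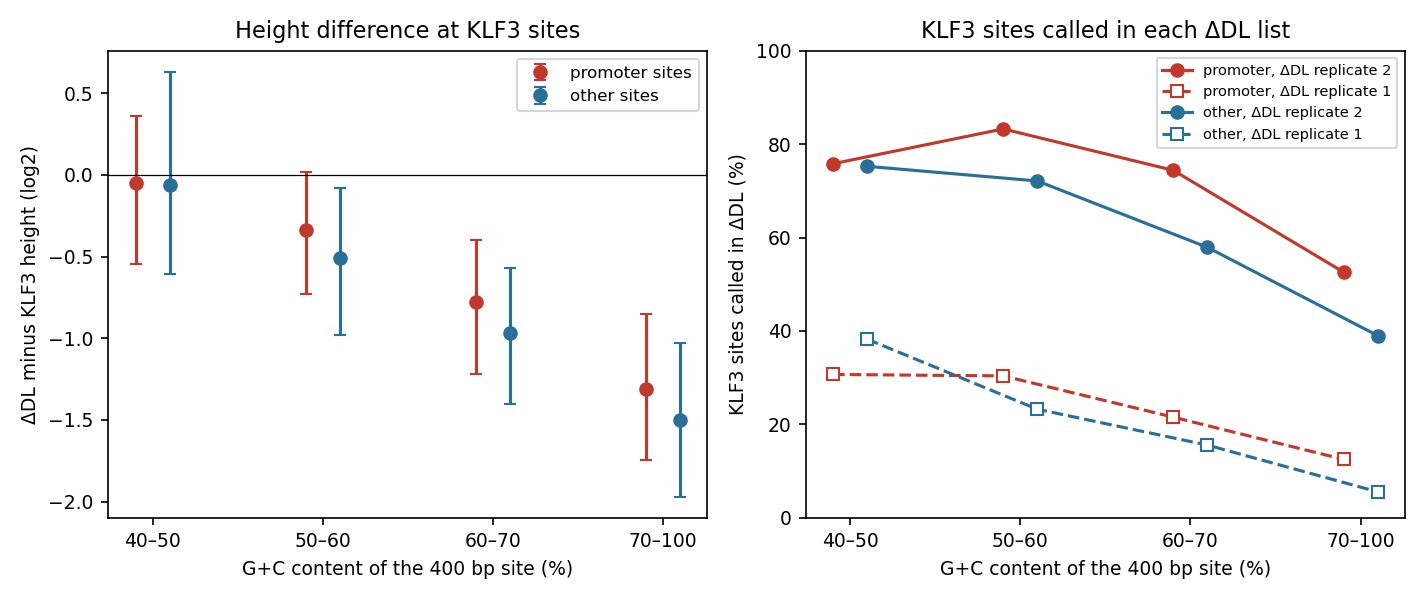
Sites called in both KLF3 lists by the G+C content of their 400 bp: left, the median log2 difference in height (ΔDL minus KLF3) with the quartiles as bars; right, the share called in each ΔDL list. Promoter and other sites (red and blue) follow one another as G+C rises, from medians of -0.05 and -0.06 down to -1.31 and -1.50, and the called share is lower in replicate 1 than in replicate 2 in every range.

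The number of KLF cores moved with both. At promoter sites called in both KLF3 lists, the median difference was -0.17 at 250 sites without a core, -0.36 at 864 with 1, -0.61 at 1049 with 2 and -0.96 at 2131 with 3 or more, and 10%, 11.7%, 14.6% and 23.98% of them were lost. At the other sites the medians were 0.71, -0.23, -0.45 and -0.92. Sites with more cores were thus lower in ΔDL in and out of promoters, and their G+C medians went from 57.1% to 66.3% at promoters and from 41.1% to 60.6% elsewhere. Sites outside promoters that held the AP-1 motif TGACTCA had a median of -0.45 at 2269 sites, against 0.04 at 7653 without it, with G+C medians of 47.1% and 45.6%. At promoters it was -0.71 both at 140 sites with the motif and at 4154 without it, and 10% and 18.7% of them were lost. Which of these features goes with the difference on its own was not tested.

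Differences were also read by distance from the gene start. The median difference was -0.71 at 2469 sites within 100 bp, -0.76 at 2610 sites from there to 1000 bp, -0.36 at 2112 sites to 10 kb, -0.11 at 4826 sites to 100 kb and 0.74 at 2199 sites beyond. Beyond 100 kb 60.8% of the sites were kept and 6.68% lost, and the G+C median was 40.1%, against 64.3% within 100 bp.

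The libraries differed in the same property. The typical KLF3 peak had a G+C content of 45.5% and 54.5% in replicates 1 and 2 (medians over each list), and the typical ΔDL peak one of 36.8% and 42.7%. At sites called in all 4 lists, the log2 score had a slope of 0.29 and 0.55 per 10 points of G+C in KLF3 replicates 1 and 2, and one of -0.24 and 0.06 in ΔDL replicates 1 and 2. The means were 0.42 ± 0.19 and -0.09 ± 0.21 (SD, n = 2 each; exact two-sided permutation p = 0.333, which 2 lists against 2 cannot go below). The part of library G+C content in the lower ΔDL signal at promoters was not tested.

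Read by library, the promoter share of the peaks was 20.03% and 31.0% for KLF3 and 7.37% and 15.9% for ΔDL, and the groups did not overlap. The means were 25.5 ± 7.74% and 11.6 ± 6.05% (SD, n = 2 each), and an exact two-sided permutation test again gave p = 0.333, the smallest possible. The same held for the 10000 highest peaks of each list, with 31.0% and 43.3% against 7.01% and 21.9% (exact permutation p = 0.333). At the 4892 sites called in all 4 lists, promoters scored above other sites by 0.74 and 1.46 on the log2 scale in KLF3, and by -0.59 and 0.19 in ΔDL. Replicate 1 of KLF3 and replicate 2 of ΔDL, the nearest lists of the groups, differed by less than the replicates of either protein did.

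**Figure D3:**
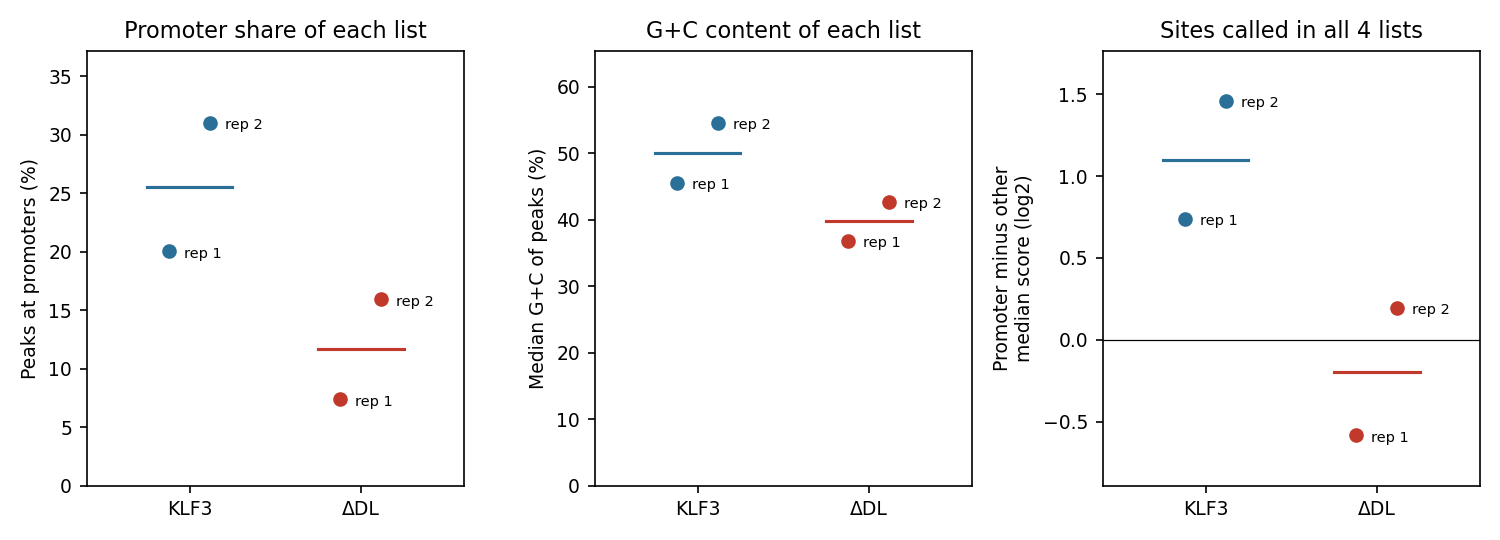
Each replicate list as a point, with the mean of the 2 lists of a protein as a line: the share of peaks at promoters (left, %), the G+C content of the median peak (middle, %) and the median log2 score of promoter sites minus that of other sites at sites called in all 4 lists (right). The KLF3 lists lie above the ΔDL lists in each panel, and the replicates of a protein lie well apart, with promoter shares of 20.03% and 31.0% for KLF3 and 7.37% and 15.9% for ΔDL.

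Whether a KLF3 promoter was also called in ΔDL depended on the ΔDL replicate. Of the 4294 promoter sites called in both KLF3 lists, 72.7% were called in ΔDL replicate 2 and 22.8% in ΔDL replicate 1. Of the 9922 other sites, 75.6% and 41.1% were called. In replicate 2, which held more tags, promoter and other sites were thus called about equally often, and the gap in calls lay in replicate 1. Scores showed a gap in replicate 2 as well. At sites called in every list, log2 scores of ΔDL replicate 2 were taken minus those of KLF3 replicates 1 and 2. The medians at promoters minus those elsewhere were -0.46 and -1.14. Replicate 2 minus replicate 1 of the same protein gave 0.55 for KLF3 and 0.79 for ΔDL. Among 5901 sites called in both KLF3 lists and in 1 ΔDL list, that list was replicate 2 in 5735 cases. Without ΔDL replicate 1 the kept sites numbered 10627, of which 29.4% were promoters, against 4892 and 19.1% with it, and without KLF3 replicate 2 they numbered 8274, of which 11.7% were promoters.

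The 10 largest falls at promoters were all lost sites. At the promoter of Hexa, which encodes the alpha subunit of the lysosomal enzyme hexosaminidase, the KLF3 scores were 549.7 and 370.5 tags per 100 M and neither ΔDL list held a peak. The pooled heights were 549 and 63.6, from 128 and 8 tags, an 8.63-fold difference with a 95% exact interval of 4.0 to 19.2 that covers counting error only. At the promoter of Casp9, the initiator caspase of the mitochondrial death pathway, the KLF3 scores were 238.2 and 259.9 with no ΔDL peak, and the height was 7.78-fold lower (3.25 to 20.6). Tgif2, which encodes a homeodomain repressor of TGF-beta responses, scored 439.8 and 226.7 in KLF3 and had no ΔDL peak, with a 9.51-fold lower height (3.90 to 29.8). Hnrpll, which encodes a regulator of alternative splicing, scored 238.2 and 370.5 in KLF3 and was 9.65-fold lower in ΔDL (4.48 to 24.1). These 4 promoters had peaks in both KLF3 lists and in none of ΔDL.

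At Nrtn, which encodes the neurotrophic factor neurturin, the KLF3 scores were 164.9 and 188.0 and the ΔDL height was listed at 0 tags against 64 tags in KLF3. With 3 pooled tags as the floor, the height was at least 10.8-fold lower, and the 95% exact interval, which also covers the counting error of the KLF3 tags, starts at 8.55-fold. The other promoters among the 10 largest falls, Rab43, Adamtsl5, C2cd2, Igsf8 and Asap2, were lost as well, with log2 differences of -3.15, -3.03, -2.98, -2.98 and -2.96. All 10 had a G+C content between 60.1% and 77.3% in the 400 bp and held 3 to 7 cores.

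Lost promoters as a whole held a KLF core in 96.8% of windows, with 3.19 cores per window on average, against 92.0% and 2.40 at kept promoters. Their median G+C content was 68.3%, against 61.1% at kept promoters. Their median KLF3 height was 270 tags per 100 M, against 491 at kept promoters, and a lower height is nearer to the calling limit. The CCAAT box, which binds NF-Y, was found in 19.6% of lost and 33.7% of kept promoters, and the ETS motif CCGGAAG in 9.75% and 20.2%, on either strand. Of the 790 lost promoters, 182 (23.0%) had a ΔDL peak within 1000 bp of their centre.

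Promoters with the highest heights over both proteins were kept, by the rule that names them. At Rangap1, which encodes the activator of the nuclear transport GTPase Ran, the scores were 2162.3 and 1006.4 in KLF3 and 2718.8 and 1700.2 in ΔDL. At Ppp1r10, a nuclear targeting subunit of protein phosphatase 1, they were 1997.4 and 1155.7 in KLF3 and 1642.6 and 1182.3 in ΔDL. Tob2, an antiproliferative factor that recruits mRNA deadenylases, scored 2235.6 and 1205.5 in KLF3 and 2152.3 and 1319.1 in ΔDL. At these 3 promoters the ranges of the proteins overlapped. Their log2 score differences after centring were -0.30 ± 0.51, -0.97 ± 0.55 and -0.80 ± 0.52 (SE) with adjusted p of 0.682, 0.283 and 0.339, in limma, and no difference was detectable with 2 lists a group. The remaining names were Tcf3, Usp31, Neat1, Oxsr1 with 2 overlapping windows, Kntc1 and Ech1, with adjusted p in limma from 0.267 to 0.647.

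A test was possible at the 4892 sites called in all 4 lists. The log2 scores, centred on the median site of each list, were compared with limma. The score was lower in ΔDL at 75 sites (1.53%) and higher at 1 (0.0204%) at an adjusted p under 0.05, and at an unadjusted p under 0.05 the counts were 792 and 260. Promoters made up 50 of the 75, which is 5.35% of 935 tested promoters, and 25 lay elsewhere, which is 0.632% of 3957. The count moved with the list left out, with 43 lower sites without KLF3 replicate 1, 0 without KLF3 replicate 2 (183 at an unadjusted p under 0.05), 40 without ΔDL replicate 1 and 753 without ΔDL replicate 2. Each of these fits takes the spread from the remaining pair and assumes that the lone list varies like it. With the scores as the authors scaled them 0 sites were lower in limma (37 at an unadjusted p under 0.05), and among 1685 sites with at least 10 tags in every list 3 were lower (166 at an unadjusted p under 0.05). A site had to hold a called peak of at least 4 tags in ΔDL replicate 1 to be tested, which kept the largest falls out of the test.

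The 5 sites with the smallest adjusted p were promoters, each lower in ΔDL. At Tmem123, which encodes a cell surface mucin-like protein, the scores were 678.0 and 702.3 in KLF3 and 283.2 and 87.9 in ΔDL, a centred log2 difference of -2.97 ± 0.57 (SE; limma, adjusted p = 0.00105). At Osbpl2, which encodes an oxysterol-binding protein, they were 1502.6 and 923.5 in KLF3 and 283.2 and 166.1 in ΔDL (-3.28 ± 0.67; limma, adjusted p = 0.00244). Epb4.1, the erythrocyte membrane protein band 4.1, Mtch2, a mitochondrial outer membrane carrier, and Prdm15, a zinc finger regulator, followed with centred differences of -2.01, -1.94 and -1.92 and an adjusted p of 0.00309 each in limma. Scores of the proteins did not overlap at Tmem123, Osbpl2 and Prdm15. At Epb4.1 and Mtch2 the ΔDL replicate 1 score of 283.2, which is 5 tags at each of the 5 sites, lay between the KLF3 scores. Of the 10 passing sites that are named (these 5 and those of Cxcl12, Klf11, Myc, Rc3h1 and Dok4), 10 kept their direction without each list in turn and under the authors' scaling. In limma, 0 of them passed without KLF3 replicate 2 or under the authors' scaling, 5 without KLF3 replicate 1, 8 without ΔDL replicate 1 and 10 without ΔDL replicate 2.

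The site that passed as higher in ΔDL lay 121232 bp from the start of Cxcl12, a stromal chemokine gene, at chr6:117239585-117239985. It scored 109.9 and 77.4 in KLF3 and 1132.8 and 185.6 in ΔDL (1.47 ± 0.40; limma, adjusted p = 0.0319). Both ΔDL scores exceeded both KLF3 scores. The difference did not pass without KLF3 replicate 1 (1.22; limma, adjusted p = 0.452), without KLF3 replicate 2 (1.73; limma, adjusted p = 0.736), without ΔDL replicate 1 (0.82; limma, adjusted p = 0.232) or with the authors' scaling (2.31; limma, adjusted p = 0.679). The site had a G+C content of 31.2% and no KLF core. The next sites in this direction, near Smc5, Amot, Epgn and Tmem135, had differences from 1.21 to 2.02 and did not pass (limma, adjusted p from 0.0561 to 0.0603). The largest of these differences was at Epgn, which encodes epithelial mitogen. That site scored 183.2 and 132.7 in KLF3 and 1189.5 and 1084.6 in ΔDL. Its pooled heights were 221 and 1458, 6.59-fold higher in ΔDL (4.78 to 9.12).

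**Figure D4:**
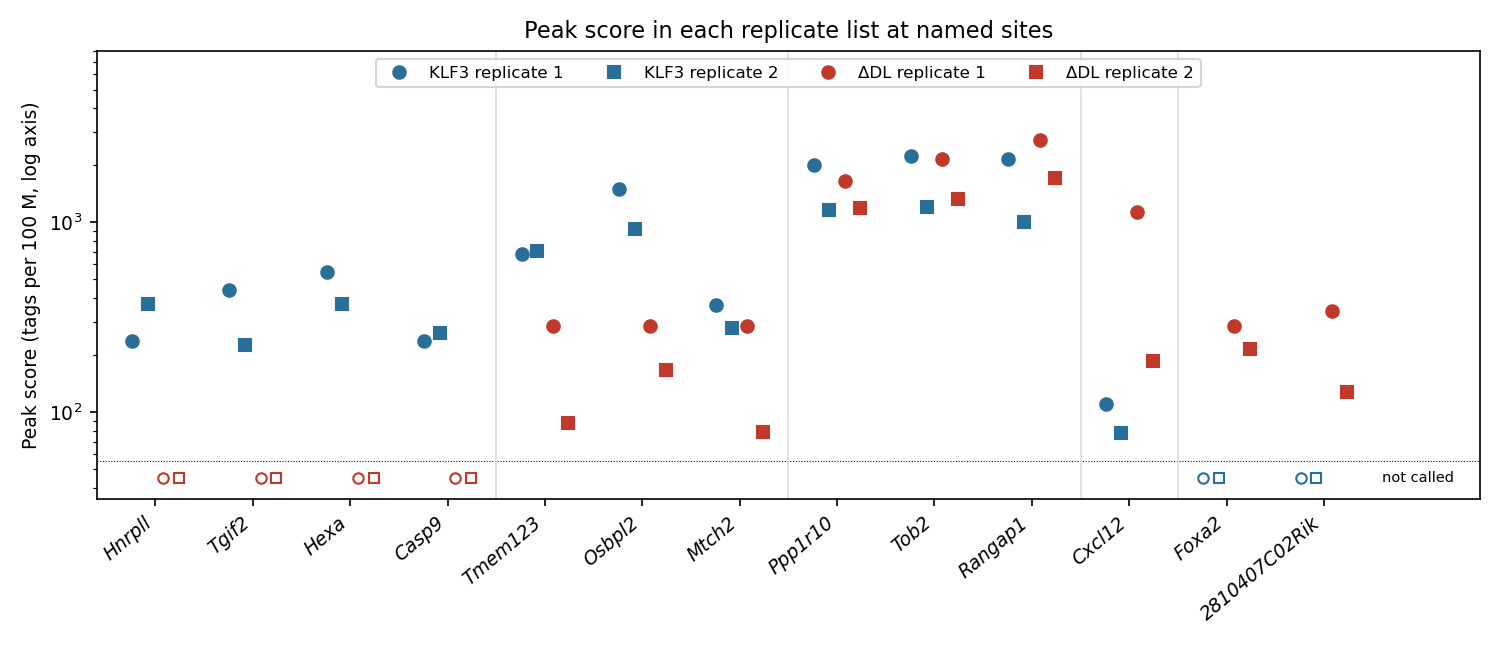
Peak score of each replicate list (tags per 100 M, log axis) at lost promoters, promoters lower in the test, promoters with high scores in all lists, the site that passed the test as higher in ΔDL, and gained sites, from left to right; circles are replicate 1 and squares replicate 2, and open symbols mark lists without a peak. Both ΔDL lists lack Hnrpll, Tgif2, Hexa and Casp9, both KLF3 lists lack the sites near Foxa2 and 2810407C02Rik, and the proteins overlap at Ppp1r10, Tob2 and Rangap1.

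Away from promoters 1285 sites were lost, of which 621 lay in introns and 539 between genes. They held a KLF core in 74.2% of windows and the AP-1 motif TGACTCA (either strand) in 28.5%, against 37.6% and 12.7% at kept and 40.0% and 14.8% at all sites outside promoters. A CpG island was annotated at 16.7% of them, against 1.90% of kept sites. An intergenic site 35297 bp from the start of H3f3a, a histone H3.3 gene, scored 164.9 and 254.4 in KLF3 and was absent from both ΔDL lists, with 94 and 2 pooled tags and a 19.8-fold lower height (6.42 to 200). An intronic site of Elf4, an ETS factor gene, scored 183.2 and 248.8 in KLF3 and was absent from both ΔDL lists, with a 15.5-fold lower height (5.16 to 76.9) from 92 and 3 tags. The others of the 8 largest falls were the sites near Arhgap8, Pik3c2g, Mtmr4, Sipa1l3, Mrpl14 and Slc37a4, each lost, with log2 differences from -4.07 to -3.53.

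Sites away from promoters with the highest heights over both proteins were near A1bg, S100a14, Klhdc8a, Cttnbp2nl and S100a2 and in introns of Plec and Prph. The S100a14 site, upstream of a calcium-binding S100 gene, scored 2125.7 and 1017.5 in KLF3 and 3171.9 and 1837.0 in ΔDL. The Plec site, in the gene for the cytolinker plectin, scored 1099.5 and 895.8 in KLF3 and 1302.7 and 801.2 in ΔDL. At both, the ranges of the proteins overlapped. The site 35905 bp from Alox5ap, which encodes the activator of leukotriene synthesis, scored 1282.7 and 978.8 in KLF3 and 679.7 and 478.8 in ΔDL, so that both KLF3 scores were above both ΔDL scores, but its centred difference of -1.81 ± 0.67 did not pass (limma, adjusted p = 0.0996). The other 7 had differences from -1.04 to -0.09 with adjusted p from 0.322 to 0.899 in limma.

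Some loci held several lost sites. All 7 sites nearest to Smad3, a signal transducer of the TGF-beta receptors, were lower in ΔDL, with log2 differences from -2.17 to -0.97, and 6 of them were lost. The same held for all 7 sites nearest to Foxl1, a forkhead factor gene, from -3.17 to -1.09 with 6 lost, over distances up to 162 kb from the start. These loci were chosen after their values were seen, as loci with many lost sites, while 9.55% of all sites were lost. Their sites had G+C medians of 53.4% and 57.1%. After centring on the sites of all 4 lists each difference is lower by 0.74.

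Gained sites were weak and often lay far from a gene start. The 2468 gained sites had median heights of 58.9 tags per 100 M in KLF3 and 150 in ΔDL, which came from 14 and 18 pooled tags. Their median G+C content was 37.9%, 16.0% held a KLF core, 26.6% lay in annotated repeats (11.8% in LINE elements) and 44.6% lay beyond 100 kb of a start. Conservation had a median of 0.03 on a scale of 0 to 1, against 0.08 at kept and 0.20 at lost sites. The site nearest to Foxa2, a pioneer factor gene of endoderm, lay 119156 bp from the gene start. It was absent from both KLF3 lists and scored 283.2 and 215.0 in ΔDL, 5.13-fold higher (2.86 to 9.52). The site near 2810407C02Rik was likewise absent from the KLF3 lists and scored 339.8 and 127.0 in ΔDL, 5.58-fold higher (2.83 to 11.2). With heights centred on the sites of all 4 lists 309 gained sites were left, with a 3-fold threshold 547, with a log2 height of at least 8 in either protein 57, and without KLF3 replicate 1 there were 4443.

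Some loci also held several gained sites, over long distances. All 20 sites nearest to Gm2516, all 17 nearest to Cntnap5a, a neuronal neurexin-related adhesion gene, and all 14 nearest to Dpp10, a modulator of potassium channels, were higher in ΔDL by the authors' scale, with median differences of 1.25, 1.39 and 1.2. They had median G+C contents of 33.3%, 38.4% and 36.7%, and 9, 9 and 7 of them were gained, beside 11.4% of all sites. These genes were also chosen after their values were seen, and after centring by 0.74 their medians stay above 0 while their smallest differences, 0.62, 0.39 and 0.31, fall below it.

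Few promoters were higher in ΔDL. The 5 named by the rule were Tmem74, Klf8, Gpr176, B3galtl and Mynn. The Tmem74 promoter, of a transmembrane protein linked to autophagy, scored 146.6 in KLF3 replicate 1, was absent from KLF3 replicate 2 and scored 396.5 and 244.3 in ΔDL, with a 4.06-fold higher height (2.59 to 6.52). Gpr176, an orphan receptor gene, scored 128.3 in KLF3 replicate 1, was absent from replicate 2 and scored 679.7 and 254.0 in ΔDL, 2.95-fold higher (1.61 to 5.18). Only the Mynn site, at a zinc finger gene, was in all 4 lists, and its centred difference of 0.34 ± 0.37 did not pass (limma, adjusted p = 0.526).

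Some genes lost the promoter site and kept another. Of 778 genes with a lost promoter site, 132 had a kept site elsewhere. The sites were matched by the nearest gene alone, without a limit on distance. At Anxa2, which encodes a calcium-dependent membrane-binding annexin, the promoter scored 1062.8 and 613.8 in KLF3, was in neither ΔDL list and was 2.55-fold lower in height (1.88 to 3.54). A site 11001 bp upstream scored 861.3 and 536.4 in KLF3 and 1019.5 and 537.4 in ΔDL, with heights of 1060 and 1017. Rtn4, which encodes the myelin-associated neurite inhibitor Nogo, lost both promoter sites (3.10-fold, 2.15 to 4.5, and 4.03-fold, 2.74 to 6.07) and kept a weaker site 43509 bp upstream. Lasp1, which encodes an actin-binding LIM protein, lost its promoter site with a 2.25-fold lower height (1.46 to 3.53), and kept 3 sites at 1704, 8558 and 17784 bp from the start. Camsap1, Zfp703, 4933407C03Rik, 5033411D12Rik and 2700081O15Rik completed the 8 genes with the highest promoters. At 5033411D12Rik the kept sites lay 777974 and 506618 bp from the start, in introns of another transcript than that of the promoter.

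The other sites of genes with a lost and with a kept promoter were compared as well. Of 748 genes whose highest KLF3 promoter was lost, 364 had 765 other sites, of which 20.1% were kept and 11.1% lost. Of 899 genes where it was kept, 354 had 733 other sites, of which 21.7% were kept and 8.19% lost. Their median differences were 0.05 and 0.23, and the gap was not tested. Of all 10652 genes with a site, 1304 had lost sites alone among the 3 classes, 2662 kept sites alone, 1074 gained sites alone and 434 both lost and kept ones.

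Gene groups differed in how far their promoters were lower, read against the median of -0.68 over all promoter sites. Apart from the 3 highest sites of each list, the members named here were picked after their values were seen. Heights are given as tags per 100 M in KLF3 and then ΔDL. Promoters of the translation and degradation machinery had medians above that of all promoter sites. The 26 promoter sites of cytosolic ribosomal protein genes had a median of -0.03, with 13 kept and 1 lost. The 8 of the proteasome had 0.015 with 2 kept and 0 lost. Over all promoter sites 21.03% were kept and 17.8% lost, and 8 sites are too few to tell the proteasome counts from these shares. Rpl41 had heights of 976 and 891, and Psmd7, a lid subunit of the proteasome, 428 and 377. Rpl31 at -1.58 and Rps23 at -1.22 were at least 2-fold lower, and Psma1, a proteasome subunit gene, also lay below -0.68 at -0.71. The G+C medians of these promoters, 56.7% and 57.9%, were below the 63.3% of all promoter sites.

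The lists of TGF-beta, G1 control and AP-1 genes had medians below it. Single members lay above, among them Smad7 at 0.24 and Cdk4 at -0.42. Fosl1 had a window above it at -0.37 and an overlapping window below it at -0.74. Over all promoter sites 17.8% were lost, and the lost counts of the lists are to be read against that share. The 12 promoter sites of the TGF-beta pathway had a median of -1.25, with 3 lost and 0 kept: Tgfb1, the founding ligand, had heights of 261 and 37.0, Skil, a repressor of SMAD proteins, 391 and 133, and Smad4, the common mediator, 249 and 88.0. The 16 sites of G1 control genes had a median of -1.02, with 3 lost: E2f1, a driver of S phase entry, had heights of 576 and 98.4, Ccne2, a partner of CDK2, 317 and 71.5, and Cdkn2a, a tumour suppressor locus, 418.8 and 101.1 at its lost promoter and 296 and 434 at another. Myc, a driver of cell growth, had no promoter site by this definition but a site in its 5′ UTR that scored 531.4 and 514.3 in KLF3 and 283.2 and 175.9 in ΔDL (-2.07 ± 0.58; limma, adjusted p = 0.0397). The adjusted p in limma was 0.0857 without KLF3 replicate 1, 0.736 without KLF3 replicate 2, 0.231 without ΔDL replicate 1 and 0.679 with the authors' scaling. The 7 sites of AP-1 factors had a median of -1.18, with Jun at 294 and 77.7 and Atf3 at 484 and 135 lost and the pair of overlapping Fosl1 sites kept. The G+C medians of the 3 groups were 67.6%, 65.6% and 63.3%, and their part in the ranking was not tested.

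Among structural genes, the 19 promoter sites of the actomyosin and lamin group had a median of -0.92 and the 11 of collagens, matrix and integrins -0.96. Myh9, non-muscle myosin heavy chain, had scores of 1026.2 and 901.4 in KLF3 and 453.1 and 332.2 in ΔDL, and both KLF3 scores lay above both ΔDL scores, but the centred difference of -2.15 ± 0.68 did not pass (limma, adjusted p = 0.0603). Vim, the intermediate filament of fibroblasts, had heights of 1252 and 1351. Itgb5 and Itgb1, integrin beta subunits, had heights of 690 and 150 and of 843 and 247. The 12 sites of the TEAD and Hippo group had a median of -0.76, the 10 of cholesterol synthesis and transport -0.59 and the 14 of AU-rich element mRNA decay -0.93. In the last list Rc3h1, which encodes the RNA decay factor roquin, was lower (-2.82 ± 0.68; limma, adjusted p = 0.00963), though not without KLF3 replicate 1 (limma, adjusted p = 0.14), without KLF3 replicate 2 (limma, adjusted p = 0.736) or with the authors' scaling (limma, adjusted p = 0.593). Adipogenesis regulators had 5 promoter sites with a median of -0.65, of which Cebpb, an early inducer of fat cell differentiation, was lost (252 and 64.9).

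The factor's own family was mixed. Of 10 promoter sites of KLF and Sp genes, with a median of -0.28, 5 were kept, 0 lost and 1, at Sp8, gained. Over all promoter sites these shares were 21.03%, 17.8% and 0.315%. Klf11, a repressor of the family, scored 1227.7 and 741.0 in KLF3 and 396.5 and 146.6 in ΔDL (-2.82 ± 0.66; limma, adjusted p = 0.00963), with an adjusted p in limma of 0.0966 without KLF3 replicate 1, 0.736 without KLF3 replicate 2 and 0.666 with the authors' scaling. Sp1 and Sp2 had heights of 508 and 630 and of 437 and 545. Of the genes for CtBP and its partners, Rcor3, a CoREST subunit, lost its promoter site (380 and 119). Ctbp1 had 380 and 141 and Ctbp2 324 and 190, both in between, and Wiz was kept (350 and 393). A site 605 bp into Ctbp2 was lost (254 and 26.7). Another 859 bp into Ctbp1 was in between (396 and 309), and an intergenic site near Zfp217 was kept (357 and 402). The medians of this list were -0.87 at its 5 promoter sites and -0.235 at its other sites. In the other promoter lists the medians were -0.89 for 5 ETS and RUNX sites, -0.77 for 4 EGF family sites, -0.72 for 2 galectin sites and -0.77 for the 1 site of Mgst3.

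Many of the highest sites of these lists lay outside promoters. Tgfbr2, which encodes a TGF-beta receptor, had a kept intergenic site 208337 bp from its start (949 and 955). Ski, a SMAD repressor, had a kept intronic site (910 and 861), while the highest promoter site of Smad6, an inhibitory SMAD, had 843 and 315. Atf3, a stress-induced AP-1 partner, had a kept site 41113 bp upstream (1075 and 1184) beside its lost promoter. Ankrd1, a Hippo target, had a kept site at 1333 and 1296. Klf6 had a kept site 332250 bp from its start (982 and 1113). Nrg1, an EGF family ligand, had a kept site 162221 bp from its start (695 and 760). By the authors' scale, the intervals of the ratios included 1 at the kept sites named so far. After centring, the score differences at these sites were all below 0, from -1.29 at Ankrd1 to -0.87 at Atf3. At the Smad6 promoter the ratio was 0.374 (0.253 to 0.528). Col6a1, a collagen gene, had a kept site at 564 and 923, which was higher in ΔDL by the authors' scale, a ratio of 1.64 (1.25 to 2.11). After centring, the Col6a1 site was not higher, with a height difference of -0.03 and a score difference of -0.29. Vgll4, a TEAD cofactor, had a site at 923 and 294, Ets1 a promoter site at 765 and 240 and Wnt10b, an inhibitor of fat cell formation, a site at 572 and 141. The kept sites had G+C contents from 41.4% to 63.1%, and those at Smad6, Vgll4, Ets1 and Wnt10b from 59.6% to 73.6%. None of those tested passed in limma (adjusted p from 0.221 to 0.758).

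**Figure D5:**
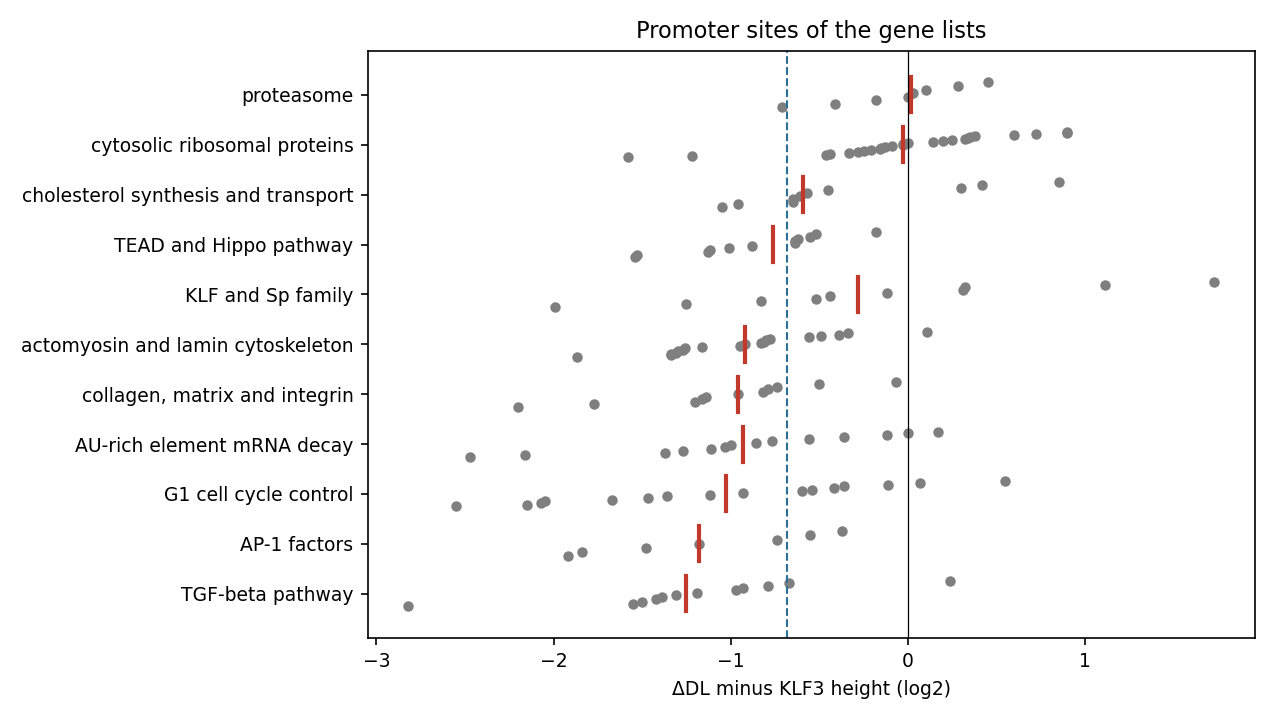
Log2 difference in height (ΔDL minus KLF3) of each promoter site of 11 gene lists (grey points), with the median of each list as a red bar, the median of all promoter sites as a dashed line at -0.68, and 0 as a solid line. The medians of proteasome and ribosomal protein promoters lie right of the dashed line at 0.015 and -0.03, and those of AP-1 and TGF-beta promoters left of it at -1.18 and -1.25. Centring would move every point left by 0.74.

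Genes that the study lists as changed on rescue of the Klf3-/- cells with KLF3 were looked up as well, and since the study chose them on cells of the same system they are no independent evidence. The 61 promoter sites of genes repressed on rescue had a median of -0.90, with 12 lost and 8 kept, and the 19 of activated genes -1.2, with 7 lost and 0 kept, beside 17.8% lost and 21.03% kept over all promoter sites. The study also required a KLF3 promoter peak of these genes, so they entered the lists through a signal that is compared here. Dok4, an adaptor of receptor tyrosine kinases from the repressed list, scored 1026.2 and 674.6 in KLF3 and 396.5 and 205.2 in ΔDL (-2.38 ± 0.67; limma, adjusted p = 0.0376), with an adjusted p in limma of 0.206 without KLF3 replicate 1, 0.736 without KLF3 replicate 2 and 0.679 with the authors' scaling. Prickle1, a planar polarity gene from the activated list, lost a promoter site (343 and 44.9 tags per 100 M) and a site 104351 bp away (350 and 44.3). Over the lists of genes, 30 and 6 sites were tested, of which 3 and 0 passed, all lower, against 1.53% of all tested sites.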

How the data were processed

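The ChIP-seq peak files of the KLF3 and ΔDL immunoprecipitations, 2 replicates each, were analysed, and the DBD construct and the inputs were left out (the inputs enter only through the authors' peak calling). As the submitters' processing notes list them, FastQC 0.10.1, Bowtie2 2.0.0, SAMtools 0.1.18 and HOMER 4.1 were used, with mm9 as the genome. The authors called peaks per replicate, and the deposited peak scores are signal values, tags in the peak per 100 M tags. The deposited log2 heights were made by the authors from the tags of both replicates combined within 400 bp of a peak, so they carry no replicate error. The G+C fraction of each peak was computed by the authors with the annotation, and so was the PhastCons conservation score, as deposited. Scores were whole multiples of 1 tag (within 0.15) and thereby gave the tag numbers, but were treated as scores.

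Sites, classes and motif matches were computed with Python 3.11.15, pandas 2.3.3 and pysam 0.24.0, on a genome of the same build. Scores at sites called in all 4 lists were log2-transformed without a pseudocount, centred on each list's median and tested with limma 3.58.1 in R 4.3.3 (trended prior, Benjamini-Hochberg adjustment, two-sided), after a test on simulated data. Intervals are 95% exact intervals from pooled tags, and 3 tags were the floor. The replicates are described as biological but share 1 clone per protein, so p-values measure only the spread between these samples.

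The members and gene lists were chosen with earlier results of these data known. Named sites were the largest falls (10 promoters, 8 others), rises (5 and 8) and heights in all lists (10 and 8) among sites with a log2 height of at least 8, the 8 genes with the highest lost promoter beside a kept site, the 5 smallest adjusted p in each direction and the 3 highest sites of each gene list. Alternatives were other scaling, overlap, fold, height and tag minimums, the replicate block and leaving out each list.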

Additional observations from a re-analysis of the deposited data

How the results depend on the processing

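The counts of the test depended on most settings. With the authors' scaling 0 sites were lower in ΔDL in limma (37 at an unadjusted p under 0.05) and 1 was higher, which was not the Cxcl12 site, and with at least 10 tags in every list 3 of 1685 sites were lower and 0 higher (32 at an unadjusted p under 0.05). Leaving out each list, which leaves 1 list in an arm, assumed to vary like the other pair, gave 0 to 753 lower and 0 to 288 higher sites. The replicate numbers were not known to pair the libraries. A fit with the replicate block gave 977 lower and 152 higher sites, and deviations of equal numbers from the group means correlated with r = 0.388. All 10 named sites that passed (Rc3h1 included) kept their direction under the block, the authors' scaling and each left-out list, but 0 of them passed under the authors' scaling or without KLF3 replicate 2. The planned count model on recovered tags was not run, since the files used here hold scores and not counts.

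Centring the heights gave 3183 lost sites (34.1% promoters), 309 gained sites and medians of -1.42 at promoters and 0.02 elsewhere. A 3-fold threshold gave 983 lost sites (41.7% promoters), 547 gained sites (0.183% promoters) and 72 genes with a lost promoter and a kept site. A log2 height of at least 8 gave 893 lost sites (49.4% promoters), 57 gained sites (0% promoters), 25% promoters among kept sites, 57 such genes and a median of 0.08 outside promoters. Sites listed by the authors for KLF3 alone had medians of -0.85 at promoters and -0.57 elsewhere, and those for ΔDL alone 0.38 and 1.10, since a list of 1 protein favours it. Leaving out each list gave 2075 to 3137 lost sites (38.0% to 44.4% promoters), 5058 to 10627 kept sites (11.7% to 29.4% promoters), 2507 to 4443 gained sites and 147 to 252 genes with a lost promoter and a kept site. The highest counts came without ΔDL replicate 2 (lost), without ΔDL replicate 1 (kept, and these genes) and without KLF3 replicate 1 (gained). A minimum overlap of 50% left each class within 1.5 times its count. The difference in promoter share between the groups was -13.9 points over all peaks and -22.7 over the 10000 highest, an alternative chosen after seeing the data.

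At 1.77 M tags ΔDL replicate 1 cannot show that a site without a call was unbound, and the pooled ΔDL height has a step of 8.45 tags per 100 M. Why the counts moved with the settings was not tested.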

Other observations

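The Klf3 gene itself held 8 of the sites, and it was chosen after its values were seen. Sites over exons 3, 4, 5 and 6 of its 6 exons had heights of 455, 292, 315 and 355 tags per 100 M in KLF3 and 1105, 929, 923 and 917 in ΔDL. The ratios of ΔDL to KLF3 were 2.43 (95% exact interval 1.87 to 3.18), 3.18 (2.33 to 4.38), 2.93 (2.14 to 3.95) and 2.58 (1.91 to 3.46). These 4 sites held 1, 0, 0 and 0 KLF cores. In ΔDL replicate 2 the peaks over exons 3, 4, 5 and 6 held 62, 84, 73 and 71 tags. ΔDL replicate 1 held 5 and 6 tags over exons 3 and 5 and no peak over exons 4 and 6. The Klf3 promoter, with 8 cores, had 1136 in KLF3 and 639 in ΔDL, a ratio of 0.563 (0.432 to 0.732), and the sites in an intron and downstream had ratios of 1.29, 1.02 and 2.69. The constructs carry Klf3 coding sequence, and tags from an integrated construct and from the endogenous exons cannot be told apart in these files. The part of the construct in the exonic signal was not tested.

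Among the genes with the most kept sites were Diap2, with 10 kept of 19 sites, and Lrrc4c, which encodes a netrin-G ligand of synapses, with 9 of 24. Neither gene had a lost site. Tgif1, a homeodomain repressor related to Tgif2, had 4 lost and 1 kept of 8 sites. These genes were also picked after their values were seen, and over all sites 22.5% were kept and 9.55% lost.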
